A study of Drosophila melanogaster with 4 samples.

Results

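Isolated Sfmbt clusters are enriched regions on the large autosomal arms 2L, 2R, 3L and 3R of Drosophila melanogaster that lie far from any other reproducible region. A cluster was counted as reproducible when the authors' combined list held it and it overlapped, by at least 1 bp, a cluster called in each ChIP replicate. It was counted as isolated when at least 20000 bp (20 kb) separated it from the next reproducible cluster on each side, and the first and last reproducible cluster of each arm were left out. Of the 8434 clusters of the combined list, 6360 lay on these arms, 4310 of those were reproducible and 408 were isolated. The other 3894 had a closer neighbour on at least 1 side, and 8 were arm ends.

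The clusters came from chromatin immunoprecipitation and sequencing (ChIP-seq) with the antibody Q2642 against Sfmbt, labelled dSFMBT. The chromatin was cross-linked, sonicated chromatin of heads of adult flies of the wild-type strain Oregon-R, labelled as mixed adult, and a head holds many cell types at once. The series has 2 ChIP samples and 2 input samples, 1 input for each ChIP, and nothing in the labels tells whether each ChIP was done on flies of its own, so their spread may be a technical one. Each cluster has a position on FlyBase release 5 and 1 score, the authors' own value on a log2 scale, and read depth is unknown. The ChIP lists held 5101 clusters on these arms in replicate 1 and 4954 in replicate 2.

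Sfmbt is a Polycomb group protein, one of the proteins that keep developmental genes switched off. It partners with Pho, a DNA-binding protein, in the Pho repressive complex, and carries MBT repeats, folds that recognise methylated lysines of histones. In the fly this complex occupies Polycomb response elements, the short stretches of DNA from which Polycomb silencing is organised, and such elements can act on promoters that lie far along the chromosome. No gene is named for any cluster here, because the genes known here are placed on release 6 of the genome and not on that of the clusters, and no sequence is shown.

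The members were chosen by their positions in all 3 lists, and scores come from the same enrichment calls. Values are therefore described, with no test between isolated clusters and those with a closer neighbour. Means and SDs are over the 2 ChIP replicates, clusters within a list are not replicates, and 95% exact binomial intervals cover counting error only.

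Isolated clusters made up 9.47% of the reproducible clusters on these arms (408 of 4310, interval 8.61 to 10.4%), or 4.22 per Mb against 44.6 per Mb for the whole reproducible set. The arm 2L held 113 of them, 3R held 111, 3L held 104 and 2R held 80. As a share of the arm's own reproducible clusters this was 12.2% on 2L (interval 10.1 to 14.4%), 10.1% on 3L, 8.80% on 3R and 7.33% on 2R (interval 5.86 to 9.04%). The arm with the fewest reproducible clusters per Mb, 2L with 40.4, had the highest isolated share, and the densest arm, 2R with 51.6, had the lowest. A sparser arm tends to have a higher share by the rule, and nothing is read from this order. Together the isolated clusters covered 1.21% of the 4 arms and made up 8.51% of the length covered by reproducible clusters.

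Most isolated clusters had a smaller gap of under 50000 bp. The smaller of a cluster's gaps had a median of 31806 bp, with quartiles of 24789 and 46301 bp, and the larger had a median of 63994 bp. In 190 clusters the smaller gap was below 30000 bp, in 128 it was 30000 to 50000 bp, in 73 it was 50000 to 100000 bp, and 17 clusters stood at least 100000 bp from any other reproducible cluster. By arm, the median of the smaller gap was 26159 bp on 2R and between 32117 and 33474 bp on the other arms. Of the 408, 234 (57.4%) had another isolated cluster as the next one on at least 1 side. The neighbour of a member shares its gap and so has 1 open side by the rule, and nothing is read from this share. The longest rows held 5 isolated clusters, and there were 3 such rows. On 2L they spanned 237851 bp from 1255318 to 1493168 and 210143 bp from 14408020 to 14618162, and on 2R 387754 bp from 15612618 to 16000371.

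The most remote cluster was also the lowest scoring of all the members in the combined list. It lay on 2L at 17130168 to 17132022, was 1855 bp wide and had 241 kb free on its left and 236 kb on its right. Its score was 0.23 in replicate 1 and 0.43 in replicate 2, which gave 0.33 ± 0.14 (SD, n = 2). No cluster of any of the 3 lists lay within 20 kb of it. The next most remote were stronger in part. The cluster on 3R at 1995529 to 1997917 had gaps of 159.86 and 172.82 kb, and its score of 1.77 in replicate 1 stood against 0.79 in replicate 2. Its neighbour on 3R at 1831473 to 1835668, 4196 bp wide, scored 1.39 and 1.31 in replicates 1 and 2, so that the replicates differed less there. The remaining 2 of the 5 most remote had lower scores. The cluster on 3L at 13659349 to 13661667 scored 0.67 ± 0.22, and that on 2L at 15911839 to 15914533 scored 0.52 ± 0.072 (SD, n = 2).

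**Figure D1:**
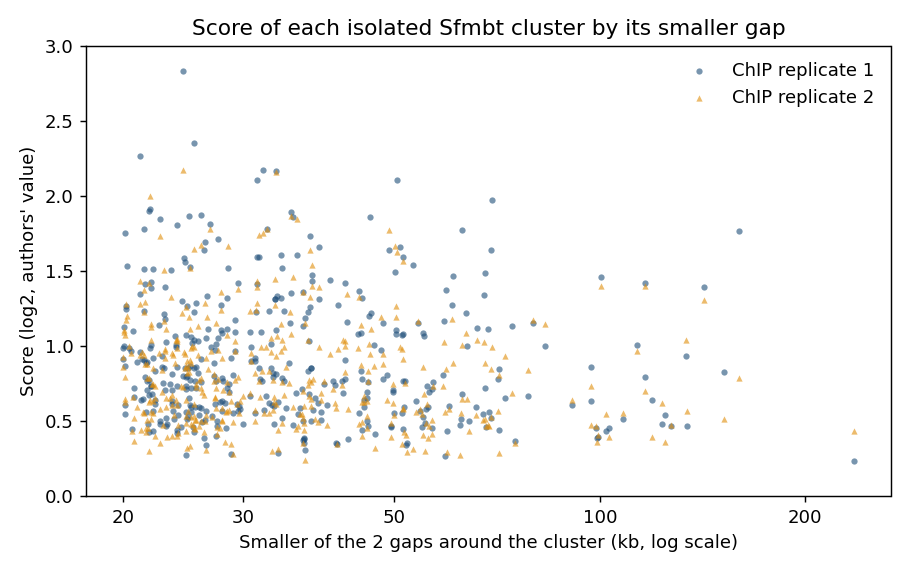
Score of each of the 408 isolated clusters in ChIP replicate 1 (circles) and ChIP replicate 2 (triangles), on the vertical axis as the authors' log2 value, against the smaller of the gaps around it in kb on a log axis. Scores above 2 were found at gaps of at most 50.4 kb, and the point farthest right is the 2L cluster with scores of 0.23 and 0.43.

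Among isolated clusters the score was lower at the widest spacing. The median score was 0.78 ± 0.045 (SD over replicates, n = 2) where the smaller gap was 20000 to 30000 bp, 0.79 ± 0.031 at 30000 to 50000 bp, 0.65 ± 0.094 at 50000 to 100000 bp and 0.61 ± 0.051 in the 17 clusters beyond. Each of the wider classes was below each of the narrower ones in both replicates. Across the 408 clusters the relation was weak, with a Spearman rho of -0.11 in replicate 1 and -0.12 in replicate 2. Among clusters with a closer neighbour, rho was 0.023 and -0.0075 in these replicates. The clusters share their libraries and are not independent points.

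The median score of isolated clusters differed little from that of clusters with a closer neighbour. It was 0.79 in isolated clusters against 0.81 in the others in replicate 1, and 0.74 against 0.76 in replicate 2. The difference of the medians was -0.015 in replicate 1 and -0.027 in replicate 2, a mean of -0.021 ± 0.0089 (SD, n = 2). Over the 4 arms together it had the same sign in both replicates, but by arm the sign was not uniform. On 2R the median of isolated clusters was lower in both replicates, at 0.75 ± 0.026 against 0.80 ± 0.033 with a closer neighbour (SD, n = 2). On 2L it was higher in both, at 0.78 ± 0.028 against 0.77 ± 0.037. The replicates disagreed on 3L, with 0.811 against 0.799 in replicate 1 and 0.734 against 0.760 in replicate 2. They also disagreed on 3R, with 0.833 against 0.825 and 0.737 against 0.769. Of the 816 positions flanking the isolated clusters, 278 were isolated clusters themselves. The median score was 0.79 in replicate 1 for both the isolated clusters and the remaining 538 flanking clusters, and in replicate 2 it was 0.74 for isolated clusters and 0.73 for those 538.

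The interquartile range of the scores was wider among isolated clusters, at 0.57 against 0.46 in replicate 1 and 0.46 against 0.44 in replicate 2. A larger share of isolated clusters lay at the strong end, by less in replicate 2. In replicate 1, 46 of 408 isolated clusters (11.3%, interval 8.37 to 14.8%) scored at least 1.5, against 232 of 3894 (5.96%, interval 5.23 to 6.75%) with a closer neighbour. The share over all 4310 reproducible clusters was 6.52%. In replicate 2 these were 21 of 408 (5.15%, interval 3.21 to 7.76%) against 135 of 3894 (3.47%, interval 2.91 to 4.09%), with 3.69% over all reproducible clusters. The direction was thus shared by the replicates, and in replicate 2 the intervals of both shares overlapped. The 95th percentile of the score was 1.77 in isolated clusters against 1.56 in the others in replicate 1, and 1.49 against 1.41 in replicate 2. At the lower quartile the order was the opposite, with 0.59 against 0.60 in replicate 1 and 0.54 against 0.57 in replicate 2. The upper quartile was 1.15 against 1.07 in replicate 1, but 0.997 against 1.004 in replicate 2. Where the smaller gap was 10000 to 20000 bp, just outside the rule, 6.64% scored at least 1.5 in replicate 1 and 4.49% in replicate 2. Members at 20000 to 30000 bp had 12.1% and 4.74%, and those at 30000 to 50000 bp 11.7% and 7.03%. At 50000 to 100000 bp these were 7 and 3 of 73 members (9.59% and 4.11%), and beyond that 1 and 0 of 17 (5.88% and 0%). The counts in these wider classes are too small to read an order from.

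Isolated clusters were narrower. Their median width in the combined list was 2375 bp, with quartiles of 2125.5 and 3153 bp, against 2586 bp with quartiles of 2184 and 3648 bp for clusters with a closer neighbour. The replicates' own clusters at these sites had medians of 2218.5 bp against 2331.5 bp in replicate 1 and 2155.5 bp against 2263 bp in replicate 2. The mean difference of -110.25 bp had an SD of 3.89 bp between the replicates (n = 2). Width did not follow the gap evenly. The median was 2455 bp where the smaller gap was 10000 to 20000 bp, 2372.5 bp in members at 20000 to 30000 bp, 2505.5 bp at 30000 to 50000 bp and 2220 bp at 50000 to 100000 bp. Members at 30000 to 50000 bp were thus wider by their median than the nearest class outside the rule. By the number of open sides, the median width was 2375 bp with 20 kb free on both sides, 2509 bp in the 1515 clusters with 1 such side and 2630 bp in the 2379 with none. The share of wide clusters was lower. Of the isolated clusters, 22 (5.39%, interval 3.41 to 8.05%) were wider than 5000 bp, against 435 (11.2%, interval 10.2 to 12.2%) with a closer neighbour. Width and score went together in both sets, with a Spearman rho of 0.703 in isolated clusters and 0.706 in the others in replicate 1, and 0.784 and 0.731 in replicate 2. Where only clusters of 2125.5 to 3153 bp were compared, the medians of the score differed by 0.00063.

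**Figure D2:**
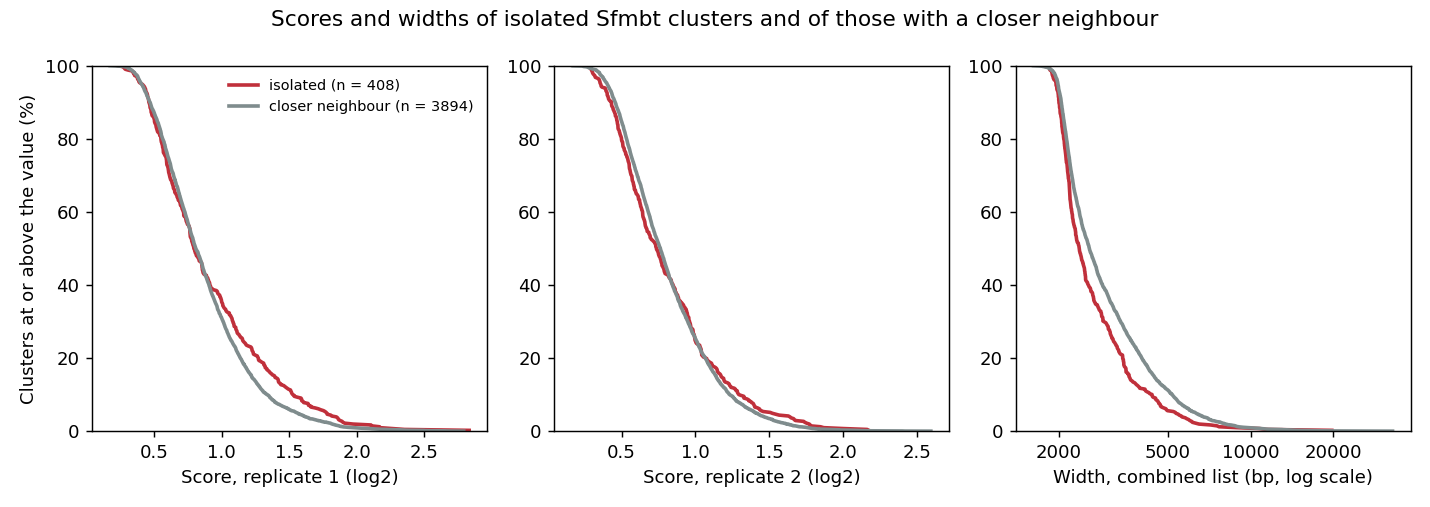
Percentage of clusters at or above each value for the score in replicate 1, the score in replicate 2 (both the authors' log2 value) and the width in bp (log axis), for 408 isolated clusters (red) and 3894 clusters with a closer neighbour (grey). The score curves run together at the median, the red curve is higher at the strong end, most visibly in replicate 1, and the width curve of isolated clusters lies below the other over most of its range.

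The 10 highest-scoring isolated clusters lay on all 4 arms and were 2199 to 5489 bp wide. The strongest, on 3L at 2850809 to 2853115, had 2.83 in replicate 1 and 2.17 in replicate 2, a mean of 2.50 ± 0.46 (SD, n = 2), and had gaps of 24.5 and 25.3 kb. Next was the cluster on 2L at 19886508 to 19888751, with 2.35 and 1.65 in replicates 1 and 2. On 2L the cluster at 18483285 to 18485888 was the only one of the 10 with a higher score in replicate 2, at 2.00 against 1.91 in replicate 1. The third cluster of 2L, at 7280519 to 7282898, had the largest difference between the replicates among the 10, with 2.26 in replicate 1 and 1.43 in replicate 2, and had 104.2 kb free on its right.

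On 3R the cluster at 12588535 to 12591080 scored 1.96 ± 0.30 (SD, n = 2). Its replicate clusters were centred 0.50 bp apart, and its flanks of 20 kb were empty in all 3 lists. Another 2 clusters of 3R were among the 10, at 3171283 to 3173481 with 1.77 ± 0.47 and at 3604579 to 3607676 with 1.78 ± 0.14. The last on 3R, at 24459529 to 24462422, scored 1.80 ± 0.025. On 2R the cluster at 7414558 to 7418281, 3724 bp wide, scored 1.87 ± 0.34 with at least 50.4 kb free on each side and empty flanks in every list. The other of 2R, at 356485 to 361973, was the widest of the 10 and scored nearly alike in the replicates, with 1.89 and 1.87, although their midpoints were 891 bp apart.

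The widest isolated clusters lay toward the centromeres on 3 of the arms. The widest of all, on 2R at 1135431 to 1155154, spanned 19724 bp in the combined list, where replicate 1 had 3 separate clusters and replicate 2 had 2. Its score was 1.22 in replicate 1 and 1.51 in replicate 2. On 2L the widest was 10784 bp long at 22869034 to 22879817, with 1.10 and 1.19, and on 3L it was 8890 bp long at 24062325 to 24071214, with 1.44 and 1.40. The widest of 3R, 7537 bp at 21410922 to 21418458, lay in the distal part of its arm and scored 1.00 and 0.90. The narrowest of each arm were 1783 bp on 2L, 1788 bp on 3R, 1861 bp on 2R and 1894 bp on 3L, and their mean scores of the replicates ran between 0.38 and 0.54.

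Isolated clusters occurred along the whole length of the arms. Each arm was divided into 10 equal segments counted from its telomeric end. Over the 4 arms the isolated share was between 7.33% in segment 9 and 12.1% in segment 3. Single arms were less even. On 2L the share reached 29.6% in segment 7 with 16 isolated clusters, on 3L 26.7% in segment 10 with 12, and on 2R 20.3% in segment 3 with 14. Isolation is defined by spacing, so a segment with few reproducible clusters tends to have a high share by the rule. No concentration of isolated clusters is read from these shares. In the segment next to the centromeres the isolated clusters had their highest median scores, 1.10 in replicate 1 and 0.98 in replicate 2. In the other segments the median was at most 0.86 in each replicate. Clusters with a closer neighbour were also higher within 1 Mb of that end, at 0.95 against 0.78 away from both ends. The 4 isolated clusters of 3R within 1 Mb of it were low, at 0.42.

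**Figure D3:**
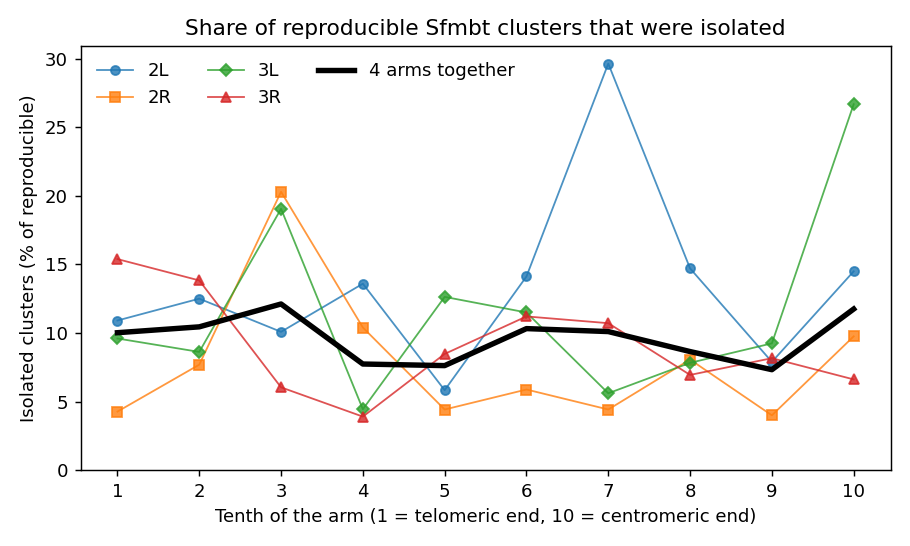
Isolated clusters as a percentage of the reproducible clusters in each of 10 equal segments of an arm, from the telomeric end (1) to the centromeric end (10), for each arm and for the 4 arms together (black). The joint share stays between 7.33% and 12.1%, whereas 2L reaches 29.6% in segment 7 and 3L reaches 26.7% in segment 10.

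Near the ends of the arms the strength of isolated clusters differed by arm. Within 1 Mb of the centromeric end, 17 of 116 reproducible clusters were isolated (14.7%, interval 8.78 to 22.4%). Pooled over the arms, their median score was 1.15 ± 0.063, against 0.95 ± 0.043 (SD, n = 2) for the 95 with a closer neighbour there. Of those 95, 50 lay on 3R, so the pooled values mix the arms unevenly. On 3R the 4 isolated clusters were lower, with a median of 0.42 ± 0.12 against 0.92 ± 0.020. The 4 on 2L had a median of 1.24 ± 0.081 against 1.20 ± 0.097 for 15 others, and the 5 on 2R had 1.07 ± 0.11 against 1.01 ± 0.099 for 28. The 4 on 3L had a median of 1.46 ± 0.010 against 0.99 ± 0.12, with only 2 clusters to compare. The 3R clusters were 1889 to 2682 bp wide, and those of 2L 3502 to 10784 bp. Within 1 Mb of the telomeric end, 17 of 201 were isolated (8.46%, interval 5.00 to 13.2%). Pooled over the arms, they had a median score of 0.63 ± 0.0012 and a median width of 2160 bp, against 0.87 ± 0.048 and 2843.5 bp for the 180 with a closer neighbour. Of these 17, 9 lay on 3R, where they were 23.1% of the reproducible clusters of that end (interval 11.1 to 39.3%) and had a median score of 0.63 ± 0.014, against 0.88 ± 0.0081 for the 29 with a closer neighbour there. The 4 on 3L went the other way, with a median score of 0.98 ± 0.12 against 0.88 ± 0.076 and a median width of 3103 bp against 2907.5 bp. Only 2 lay at this end of each of 2L and 2R. Away from both ends the median scores were 0.77 ± 0.038 in 374 isolated clusters and 0.78 ± 0.034 in 3619 with a closer neighbour.

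The gaps were free of reproducible clusters by the rule, and the other clusters of the lists showed how empty they were. Within 20 kb of a member, combined clusters outside the reproducible set were absent for 183 of the 408 (44.9%, interval 40.0 to 49.8%). Another 129 members had 1 such cluster and 96 had 2 or more. The strongest of these flanking clusters had a median score of 0.39 and exceeded the member's own combined score in 24 cases. In the replicates' own lists, no other cluster lay within 20 kb of 315 members in replicate 1 (77.2%, interval 72.8 to 81.2%) and of 346 in replicate 2 (84.8%, interval 80.9 to 88.1%). The flanks were empty in all 3 lists for 182 members (44.6%, interval 39.7 to 49.6%). Those 182 had a median score of 0.73 ± 0.074, against 0.80 ± 0.019 (SD, n = 2) for the 226 with some cluster in a flank. Isolation defined in a replicate's own list, with no use of the other lists, gave 382 of 5101 clusters in replicate 1 and 392 of 4954 in replicate 2. There the median scores were 0.73 against 0.75 for clusters with a closer neighbour in replicate 1, and 0.66 against 0.71 in replicate 2, and the median widths were 2114 against 2225 bp and 2086.5 against 2193.5 bp.

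Every member overlapped a cluster in both replicates by the rule, so replication was described over all 6360 combined clusters of the 4 arms, with gaps measured to the next combined cluster of any kind. Of these clusters 67.8% were found in both replicates. Combined clusters that stood alone had a lower share, at 183 of 325 (56.3%, interval 50.7 to 61.8%), against 4121 of 6027 (68.4%, interval 67.2 to 69.5%) with a closer neighbour. The share was 69.7% where the smaller gap was under 2500 bp, 69.3% at 2500 to 5000 bp, 66.7% at 5000 to 10000 bp and 61.7% at 10000 to 20000 bp. Of the lone clusters missing from a replicate, 54 were found in replicate 1 alone, 18 in replicate 2 alone and 70 in neither. Lone clusters were found at 72.9% in replicate 1 and 61.8% in replicate 2, against 77.3% and 75.0% for the others. Their scores were lower too, with a median of 0.48 in the combined list against 0.56.

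With the combined clusters divided into 3 equal classes of score at 0.43 and 0.75, the shares were farthest apart in the middle class. There 66 of 99 lone clusters (66.7%, interval 56.5 to 75.8%) were found in both replicates, against 1665 of 2019 (82.5%, interval 80.7 to 84.1%) with a closer neighbour. Scores within this class were not alike, with a median of 0.52 for lone clusters and 0.56 for the others, and median widths were 2123 and 2268 bp. In the lowest class the shares were 22.6% (interval 15.9 to 30.6%) and 23.3% (interval 21.5 to 25.3%). In the highest class they were 96.6% (interval 90.5 to 99.3%) and 98.4% (interval 97.8 to 98.9%).

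**Figure D4:**
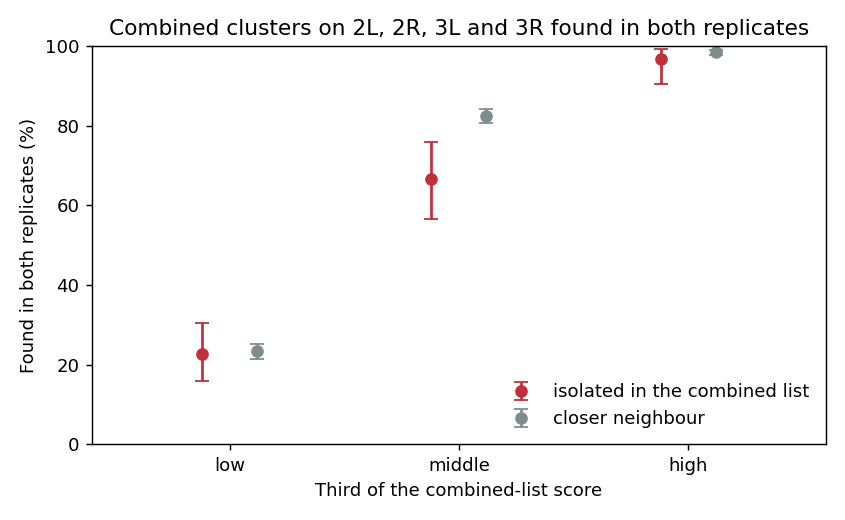
Percentage of combined clusters on the 4 arms that overlapped a cluster in both replicates, in 3 classes of the combined score, for clusters isolated among all combined clusters (red) and with a closer neighbour (grey). Bars are 95% exact binomial intervals, which separate only in the middle class, at 66.7% and 82.5%.

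The rule kept only clusters overlapped in both replicates, which favours near positions, so closeness alone is not read as replication. The replicates placed the 408 members about as near to each other as clusters with a closer neighbour. In 395 of them (96.8%, interval 94.6 to 98.3%) each replicate had exactly 1 cluster, against 3616 of 3894 (92.9%, interval 92.0 to 93.6%) with a closer neighbour. Fewer isolated clusters were wider than 5000 bp (5.39% against 11.2%), and these shares were not compared at like widths. The midpoints of the replicate clusters were a median of 64.75 bp apart in isolated clusters and 66 bp in the others. They were within 100 bp for 63.7% of isolated clusters and 62.1% of the others, and more than 1000 bp apart for 10 members (2.45%) and 150 others (3.85%). The replicate clusters shared a median of 91.8% of their joint length in isolated clusters and 92.4% in the others.

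The scores of members correlated between the replicates as those of other clusters did, with a Spearman rho of 0.817 over 408 isolated clusters and 0.816 over 3894 others. The largest differences were mostly in 1 direction. Replicate 1 exceeded replicate 2 by more than 0.5 at 31 members (7.60%, interval 5.22 to 10.6%), against 131 clusters with a closer neighbour (3.36%, interval 2.82 to 3.98%), where all reproducible clusters gave 3.78%. Replicate 2 exceeded replicate 1 by that amount at 0 members (interval 0 to 0.900%), against 4 other clusters (0.103%), where all reproducible clusters gave 0.0928%. A list may have a scaling constant of its own, which is not known. With the median difference of 0.042 over all reproducible clusters subtracted, the counts were 29 members (7.11%) and 105 others (2.70%).

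Members with such a difference were mostly strong. Among members with a combined score of 1 to 1.5, 19 of 89 (21.3%) were higher by more than 0.5 in replicate 1, against 60 of 752 (7.98%) with a closer neighbour. Above 1.5 these were 6 of 23 (26.1%) against 29 of 134 (21.6%), and at 0.5 to 1 they were 6 of 198 (3.03%) against 41 of 2236 (1.83%). The cluster with the largest difference between replicates lay on 3R at 11318081 to 11320214, with 1.54 in replicate 1 and 0.32 in replicate 2. Next were those on 2L at 1490935 to 1493168, with 1.97 and 0.99, on 3R at 1995529 to 1997917, described above, and on 2L at 5770337 to 5772402, with 1.64 and 0.67. The last of the 5, on 3R at 2862015 to 2864332, had 1.72 and 0.78. All 5 were 2066 to 2389 bp wide, and the replicates placed their midpoints within 95.5 bp of each other. Overlap in both replicates was required by the rule, and 63.7% of all members had midpoints within 100 bp. Nothing is read from this closeness.

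**Figure D5:**
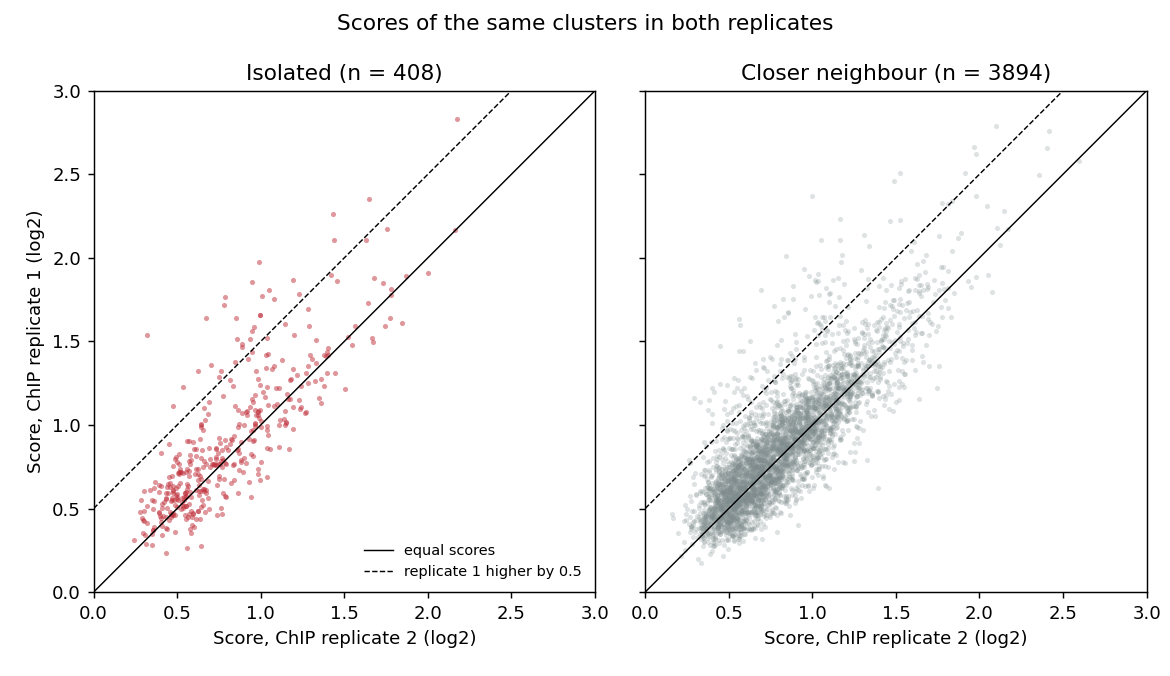
Score of each cluster in ChIP replicate 1 (vertical axis) against ChIP replicate 2 (horizontal axis), both the authors' log2 value, for 408 isolated clusters (left) and 3894 clusters with a closer neighbour (right). Above the dashed line, where replicate 1 is higher by more than 0.5, lie 31 isolated clusters and 131 others.

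Just inside were the cluster on 2L at 7854179 to 7857597, with a smaller gap of 20001 bp and a score of 0.93 ± 0.088 (SD, n = 2), that on 3R at 17071313 to 17073672, with 20012 bp and 0.92 ± 0.011, and that on 3L at 7148637 to 7152242, with 20095 bp and 1.11 ± 0.022. Just outside were clusters on 3R at 16108570 to 16111056, with 19951 bp and 0.51 ± 0.051, on 2L at 18880327 to 18882771, with 19872 bp and 1.18 ± 0.32, and on 3L at 15890966 to 15893354, with 19831 bp and 0.77 ± 0.25.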

How the data were processed

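Sfmbt ChIP-seq of adult fly heads was analysed from 3 lists of regions of significant enrichment, 1 per ChIP replicate and 1 for the replicate set, on FlyBase release 5 per the file headers. Per the submitters' processing notes, Bowtie 0.12.7 was among the tools. How clusters were called, at which threshold and with which read filters, and how the replicate set was made, is not given in the sources used here. The score is a log2 value deposited by the authors. Its base was settled from the values: powers of 2 of score differences came out, within a relative tolerance of 1e-11, as whole numbers divided by whole numbers of at most 3000 for 98.7% of the combined list, 99.9% of replicate 1 and 99.6% of replicate 2, and for at most 0.0615% of random scores. What these numbers count is unknown, so depth is unknown.

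No cluster was removed. A gap is the number of bases between neighbouring reproducible clusters. A replicate's value for a cluster is that of its highest-scoring overlapping cluster. Shares carry 95% exact (Clopper-Pearson) intervals. Positions, lengths of arms and centromeric ends follow the file headers and the usual orientation of the arms. The members, groups and alternatives were chosen with earlier results of these data known, and the shares at a score of 1.5 or a difference of 0.5 were added after the values were seen. Regions named are the 10 members with the highest combined score, the 5 with the largest smaller gap, the widest and narrowest of each arm, the 5 with the largest difference between replicates, and the 3 clusters on each side of the threshold. The rows of isolated clusters were chosen by length after their values were seen. Genes, transcription start sites and motifs were planned only for a genome of release 5 and were not run. The code was tested on simulated clusters. Tools were SciPy 1.17.1, pandas 2.3.3, matplotlib 3.10.9, NumPy 2.4.6 and Python 3.11.15.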

Additional observations from a re-analysis of the deposited data

How the results depend on the processing

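Depth is unknown, the ChIP samples number 2, and gene density and mappability along the arms were not examined. No paired analysis was possible because the groups compared are clusters of the same libraries and not samples, and differences were already taken within each replicate. The lists were read at the authors' own threshold, and any scaling constant of a list is not known. Midpoint distances need both replicates and so had no value without either.

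Lower width in isolated clusters was kept in all 10 alternatives run. Less frequent detection was kept in all 8, where the alternatives without 1 replicate counted detection in the other alone. The width difference of -211 bp was -348.5 bp at a gap threshold of 50000 bp and -110.25 bp with the replicates' own widths. The difference in the share found in both replicates, -12.1 percentage points, was -1.27 with clusters below the combined list's median score left out. Without 1 replicate it was the share found in the other, and ran from -13.1 to -4.38, the smaller difference without ChIP replicate 2. The number of isolated clusters was set by the gap threshold, with 965 at 10000 bp, 218 at 30000 bp and 90 at 50000 bp (22.4%, 5.06% and 2.09% of reproducible clusters), and was 183 (4.25%) with neighbours taken from the whole combined list. With scores at or above the combined median the share was 17.3%, and without 1 replicate the count ran from 383 to 384 and the share from 7.81% to 8.13%.

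The difference of the median scores, -0.021, was close to 0 and changed sign. It was -0.033 at a threshold of 30000 bp, -0.14 at 50000 bp, -0.051 with neighbours from the whole combined list, -0.0067 with 1 Mb at each arm end left out, -0.012 with the mean of all overlapping replicate clusters and -0.0022 with the combined score. It was 0.028 with scores at or above the combined median and 0.00063 with widths restricted to the quartiles of the members. Without 1 replicate it ran from -0.065 to -0.025. The cause was not tested. The excess of scores of at least 1.5, 3.50 percentage points over both replicates, was between 1.09 and 4.58 in alternatives chosen after seeing the data, and 1.17 without ChIP replicate 1. The excess of differences above 0.5 was between 2.63 and 7.50 percentage points.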
